A study of Mus musculus with 15 samples.

Results

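The immunity-related GTPases (IRGs) Irgm1, Irgm2, Igtp (also called Irgm3), Iigp1 (also called Irga6) and Gm4951 were followed in CUT & RUN seq of mouse bone marrow-derived macrophages (BMDMs). They are 5 of the 21938 protein-coding genes of GENCODE M21. The 5 genes were chosen by measured values, namely how far the listed H3K27ac, H3K36me3 and H3.3-HA regions covered them, so their WT and cKO values are given as a description and carry no test. CUT & RUN seq releases and sequences the DNA next to an antibody bound to chromatin in permeabilised cells. WT mice carried floxed alleles of both genes for histone H3.3, H3f3a fl/fl and H3f3b fl/fl, and no Cre. cKO (H3.3cKO) mice carried the same floxed alleles together with LysM cre/cre, in which Cre stands at the lysozyme gene Lyz2 and is active in macrophages and granulocytes. The third genotype, H3.3-HA, was an H3f3b knock-in that carried an HA tag, with no deletion, and shows where tagged H3.3 lay. Both sexes were used, at 8 to 10 weeks of age, and marrow cells grew for 6 to 8 days with L929 conditioned medium, with no other stimulus named. Each of the 5 groups (H3.3-HA, WT and cKO for H3K27ac, WT and cKO for H3K36me3) had 2 libraries. Those of WT and cKO were labelled as biological replicates, and those of H3.3-HA were told apart by number. Of 15 samples, the 5 IgG controls were not analysed here. WT lacked Cre, so an effect of Cre itself and an effect of H3.3 loss cannot be told apart, and according to the study the extent of H3f3b deletion varied between cKO samples.

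IRGs are large GTPases of cell-autonomous immunity whose genes are switched on by interferons, in macrophages as in many other cells. The regulatory members Irgm1, Irgm2 and Igtp sit on host membranes and keep the effector members inactive there. Iigp1 is such an effector and gathers on the vacuole around intracellular pathogens such as Toxoplasma. Gm4951 is a little studied gene of the same family. Acetylation of histone H3 at lysine 27 (H3K27ac) marks active promoters and enhancers, while trimethylation at lysine 36 (H3K36me3) is laid down along transcribed gene bodies.

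The promoters of the 3 regulatory members, the members with an entry in the promoter table used here, are shown because H3K27ac regions lay over gene starts. The sequences are those of RefSeq (GRCm38.p6, the build of mm10), from 250 bases before to 50 bases after the RefSeq start, 5′ to 3′ on the gene's strand. Capitals mark every match to GAAANNGAA, an interferon regulatory factor type motif, and to TTCNNNGAA, a STAT (GAS) type motif, searched on both strands. The Irgm1 promoter (chr11:48871371-48871670, minus strand) held 2 overlapping matches to GAAANNGAA and 0 to TTCNNNGAA. The Igtp promoter (chr11:58199306-58199605, plus strand) and the Irgm2 promoter (chr11:58214727-58215026, plus strand) each held 1 match to each motif, TTCNNNGAA first, with no overlap.
Irgm1: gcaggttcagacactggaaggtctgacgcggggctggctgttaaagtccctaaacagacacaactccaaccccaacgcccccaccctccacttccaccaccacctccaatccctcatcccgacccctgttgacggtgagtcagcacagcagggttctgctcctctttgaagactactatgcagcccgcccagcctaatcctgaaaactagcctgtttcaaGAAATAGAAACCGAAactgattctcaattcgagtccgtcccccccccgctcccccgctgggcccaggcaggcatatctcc
Igtp: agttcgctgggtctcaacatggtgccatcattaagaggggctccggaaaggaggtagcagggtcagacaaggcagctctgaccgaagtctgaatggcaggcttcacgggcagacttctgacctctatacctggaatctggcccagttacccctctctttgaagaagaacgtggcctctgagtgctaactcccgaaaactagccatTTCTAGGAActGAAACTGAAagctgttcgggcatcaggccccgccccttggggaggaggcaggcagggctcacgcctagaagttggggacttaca
Irgm2: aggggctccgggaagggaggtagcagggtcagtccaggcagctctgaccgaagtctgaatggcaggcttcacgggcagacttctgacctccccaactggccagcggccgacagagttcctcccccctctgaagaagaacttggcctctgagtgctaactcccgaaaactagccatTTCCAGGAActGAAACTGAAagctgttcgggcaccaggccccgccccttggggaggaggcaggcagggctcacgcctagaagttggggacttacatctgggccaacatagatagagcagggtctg
Of the 32851 promoters of this length in the table, 8.56% held GAAANNGAA, 8.3% held TTCNNNGAA and 1.07% held both. The matches began 30 and 24 bases upstream of the RefSeq start in Irgm1, 34 bases upstream for GAAANNGAA in Igtp and 64 bases upstream in Irgm2. In a global alignment, the Igtp and Irgm2 promoters were identical at 247 of 264 aligned bases (93.6%), whereas Irgm1 was identical to them at 74.9% and 74.4% of aligned bases. The H3K27ac regions of all 4 libraries covered all 300 bases of each of the 3 promoters, and H3K36me3 regions covered 0 bases. H3.3-HA regions covered 155 and 300 bases of the Irgm1 promoter in replicates 1 and 2, and 0 bases of the other two.

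The libraries held 5365319 to 29988098 tags and 35018 to 61764 listed regions with a median width of 757 to 1332 bp. H3K36me3 libraries held 15086387 and 14027132 tags in WT against 23782914 and 23503055 in cKO. H3K27ac libraries held 28366343 and 16444864 tags in WT against 29988098 and 25560110 in cKO. Depth thus differed with genotype, and its part in regions listed only in cKO was not tested. H3K27ac regions covered 89.6 and 74.8 Mb in WT against 46.2 and 62.0 Mb in cKO. H3K36me3 regions covered 164 and 170 Mb in WT and 163 Mb in cKO replicate 2, while cKO H3K36me3 replicate 1 stood apart with 90.7 Mb and 19.3% of its tags in regions. The WT and cKO lists were called against different IgG controls. Regions of both marks lay over 8 of 10 macrophage marker genes in all 4 libraries. Of 15 marker genes of other cells, 5 had an H3K27ac region and 1 an H3K36me3 region in any library, and Cd3e, Cd3g, Pax5, Gata1, Col1a1, Pdgfra and Ly6g had none of either mark, whereas Elane, a gene of granulocyte precursors, had H3K27ac in all 4. As a check of the labels, H3K27ac regions covered 94.2 and 88.4% of Lyz2, where Cre is inserted, in WT and 28.1 and 24.4% in cKO. H3K36me3 over Lyz2 went the other way, with 33.0 and 32.1% in WT and 49.0 and 70.1% in cKO. Lower H3K27ac in both cKO libraries was also found at 38.2% of all genes with a region. H3f3a and H3f3b kept listed regions of both marks in cKO (H3K36me3 over H3f3b was 5.84 and 7.78% in WT, 21.7 and 24.2% in cKO), so the lists do not show the deletion and the genotype labels were taken as given.

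The measure used below is the percent of a gene's window, its annotated body plus 5 kb upstream, that listed regions cover. It describes how far enrichment was called, not how strong it was, because the lists carry positions without heights. On mm10, the Irgm1 body spans chr11:48861968-48871683 on the minus strand, Igtp chr11:58199556-58207591 and Irgm2 chr11:58199618-58222782 on the plus strand. GENCODE gives Irgm2 a transcript that begins 62 bp after the Igtp start, so its body includes Igtp, while its other 2 transcripts begin at 58215028 and 58215008. Gm4951 (chr18:60212080-60247820) and Iigp1 (chr18:60376027-60392634) lie on the plus strand. Reads of 25 bp place poorly in such a family of copies. Words of 25 bases that occur once in the genome made up 91.2% of the Irgm1 window, 82.4% of Irgm2, 82.7% of Igtp, 64.4% of Iigp1 and 57.5% of Gm4951.

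H3K27ac regions covered more of all 5 genes in both cKO libraries than in both WT libraries, and less of 0. The Igtp and Irgm2 windows share the region at the Igtp start, so these genes are not fully separate counts. The differences in mean ran from 7.04 to 13.7 percentage points, largest at Iigp1 and Gm4951. Among all 12767 genes with an H3K27ac region in any of the 4 libraries, 17.4% met the same rule and 38.2% met it in the other direction. Regions in both cKO and neither WT library were found for 1 of the 5 genes, Iigp1 (3.63% of all such genes), and regions in both WT and neither cKO library for 0 (3.79%). The median difference was 7.79 points over the 5 genes and -1.02 points over all 12767. With 2 libraries a group, the smallest p an exact permutation test can give is 0.333, two-sided, so that test could not pass a threshold of 0.05 for a single gene.

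**Figure D1:**
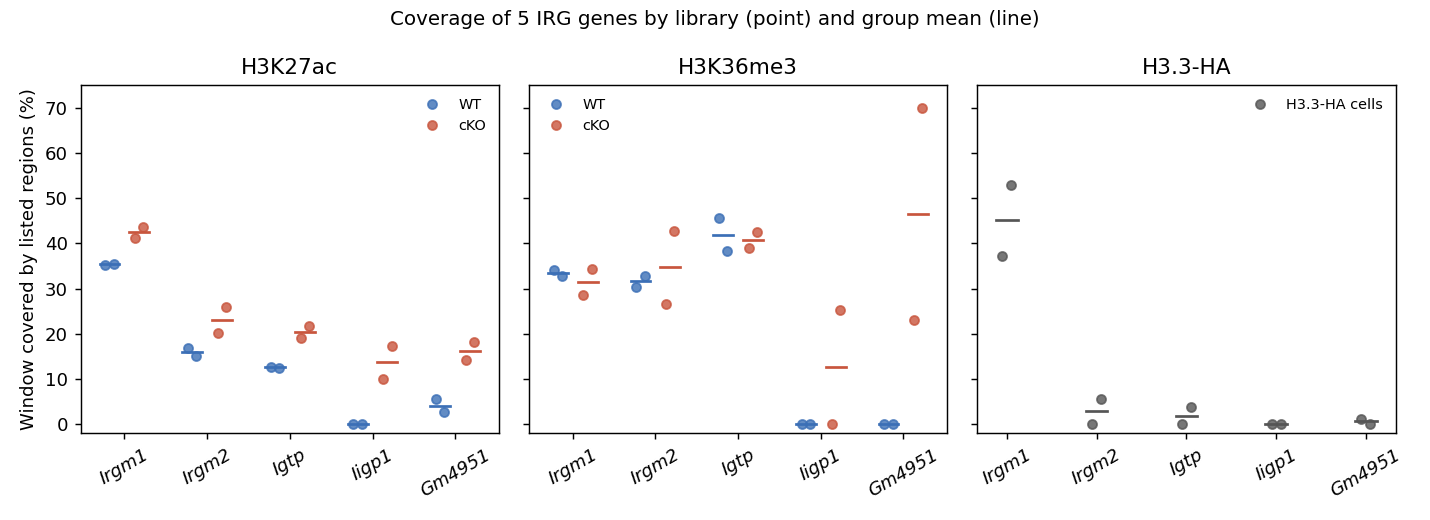
Percent of each gene's window covered by listed regions (y axis), for H3K27ac, H3K36me3 and H3.3-HA, with 1 point per library and a line at the mean of 2 libraries. For H3K27ac the cKO points lie above the WT points at all 5 genes, whereas for H3K36me3 this holds only at Gm4951, at 23.0 and 70.0% against 0%.

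Irgm1, the regulator needed for resistance to mycobacteria and for lysosomal delivery, already carried a broad H3K27ac region over its start in WT, covering 35.2 and 35.5% of its window, against 41.1 and 43.6% in cKO (35.3 ± 0.231 and 42.4 ± 1.76%, mean ± SD, n = 2). The groups did not overlap. The region over the start was 5178 and 5226 bp wide in WT and 6054 and 5920 bp in cKO. Its width differed at the upstream side: it reached -2078 and -1813 bp from the start in WT and -2936 and -2741 bp in cKO. On the gene side it ended 3099 and 3412 bp into the gene in WT and 3117 and 3178 bp in cKO, which overlap. With the gene body alone, without the 5 kb upstream, the groups overlapped (31.9 and 35.1% in WT, 32.1 and 37.9% in cKO).

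**Figure D2:**
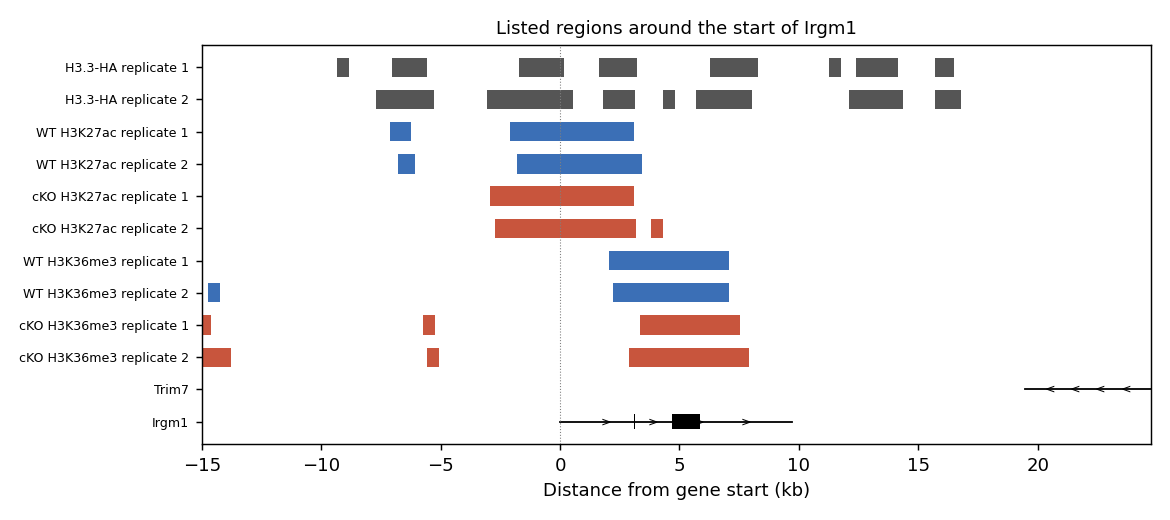
Listed regions of each library (bars) around Irgm1, drawn along its direction of transcription by distance from the GENCODE start in kb, with coding sequence as black boxes. The H3K27ac bar over the start reaches further upstream in both cKO libraries, and the H3K36me3 bar starts and ends further into the gene.

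Igtp, the regulator found on the endoplasmic reticulum and lipid droplets, had a single H3K27ac region over its start, covering 12.6 and 12.5% of its window in WT and 19.1 and 21.6% in cKO (12.6 ± 0.0868 and 20.4 ± 1.76%). All cKO values lay above all WT values. The region was 1647 and 1631 bp wide in WT and 2492 and 2817 bp in cKO, and here most of the added width was inside the gene. It ended 1079 and 1054 bp after the start in WT, and 1828 and 2140 bp after it in cKO.

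Irgm2, the regulator associated with the Golgi apparatus, showed 16.8 and 15.1% coverage in WT against 20.1 and 25.9% in cKO (15.9 ± 1.18 and 23.0 ± 4.03%). Its window holds the Igtp region just described. The region over its own 2 inner starts was 2577 and 2622 bp wide in WT and 2051 and 3013 bp in cKO, so that the 2 groups overlapped there. With the shorter RefSeq model of Irgm2, which leaves Igtp out and was added after the data had been seen, coverage was 24.0 and 20.5% in WT and 24.8 and 34.9% in cKO. The groups were then separated by less than 1 percentage point.

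**Figure D3:**
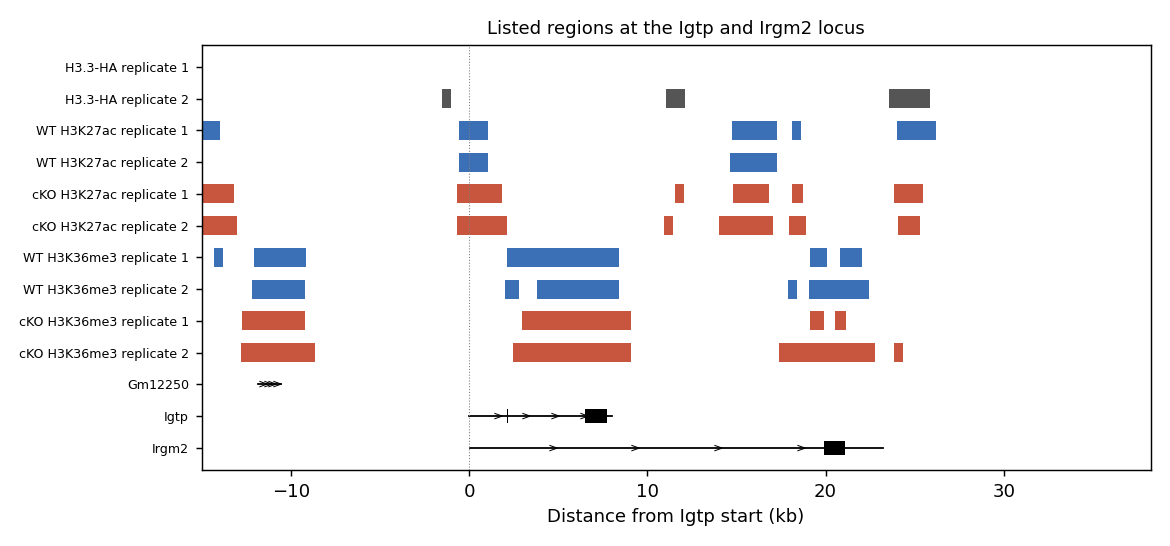
Listed regions of each library (bars) around Igtp and Irgm2 by distance from the Igtp start in kb, with coding sequence as black boxes. The H3K27ac bar at the Igtp start extends further into the gene in cKO (1828 and 2140 bp) than in WT (1079 and 1054 bp), while the bar at the inner Irgm2 starts overlaps in width between the groups.

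Gm4951 had a narrow H3K27ac region at its start in WT, covering 5.53 and 2.69% of its window, and a wider one in cKO, where coverage was 14.2 and 18.1% (4.11 ± 2.01 and 16.2 ± 2.75%). The groups did not overlap. The region over the start was 2255 and 1094 bp wide in WT and 5023 and 5637 bp in cKO. It ended 274 and 158 bp after the start in WT, and 3366 and 3285 bp after it in cKO. A further region, 778 and 1250 bp wide, lay from about 26416 and 26295 bp into the gene in both cKO libraries and in neither WT library.

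Iigp1, the effector GTPase, had no listed H3K27ac region in WT (0 and 0%), against 10.0 and 17.4% in cKO (13.7 ± 5.19%). The region found in both cKO libraries was 2168 and 2658 bp wide and began 5124 and 5036 bp into the gene, where it covered the start of an inner transcript. The outer start was covered in 1 cKO library, replicate 2, by a region of 1096 bp. A list without a region says that no enrichment passed the threshold of the caller, not that the mark was absent.

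**Figure D4:**
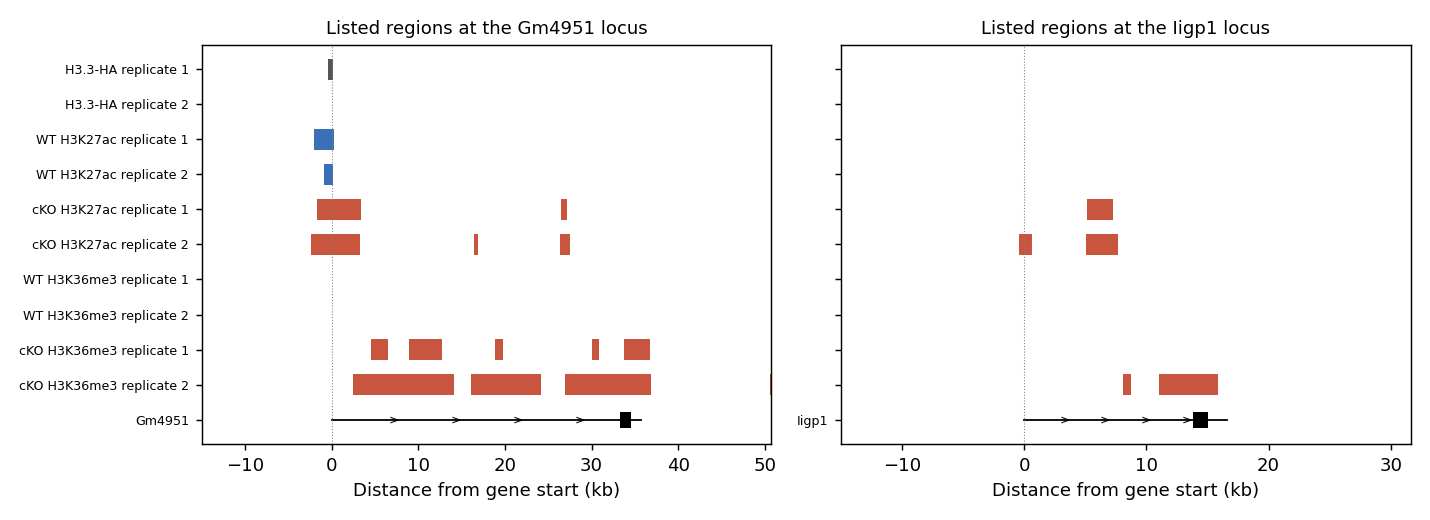
Listed regions of each library (bars) around Gm4951 and Iigp1 by distance from the gene start in kb, with coding sequence as black boxes. WT bars are limited to H3K27ac at the Gm4951 start, whereas cKO bars include H3K36me3 along Gm4951 in both replicates and along Iigp1 in replicate 2.

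H3K36me3 regions covered more of 1 of the 5 genes, Gm4951, in both cKO libraries than in both WT libraries, and less of 0. Among 11975 genes with an H3K36me3 region, 7.85% met that rule and 37.7% met it in the other direction. Gm4951 was also the 1 gene with regions in both cKO and neither WT library (1.22% of all such genes), and 0 genes had regions in both WT and neither cKO library (2.96%). The median difference was 3.07 points over the 5 genes and -4.99 points over all 11975. The counts depended on single libraries. Without cKO H3K36me3 replicate 1, coverage was higher in cKO at 4 genes (Irgm1, Irgm2, Iigp1 and Gm4951). At Irgm1 the margin was very small, with 5039 bp covered in cKO replicate 2 against 5032 bp in WT replicate 1. Without cKO H3K36me3 replicate 2 it was higher at 1 and lower at 2 (Irgm1 and Irgm2), without WT replicate 1 it was higher at 2 (Igtp and Gm4951), and without WT replicate 2 it was lower at 1 (Igtp). None of the annotated starts of the 5 genes was covered by H3K36me3 in any library.

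At Gm4951, H3K36me3 regions covered 0 and 0% of the window in WT, 23.0% in cKO replicate 1 and 70.0% in cKO replicate 2 (46.5 ± 33.3%). Both WT H3K36me3 libraries held fewer tags than both cKO libraries. The difference of 46.5 points was number 12 from the top of 11975 genes. In cKO replicate 2 it consisted of 3 regions of 11690, 8031 and 9935 bp, and in cKO replicate 1, the library that stood apart, of 5 regions of 710 to 3815 bp. The coding sequence, near the 3′ end of the gene, was covered to 81.8 ± 25.7% in cKO. In both cKO libraries the H3K36me3 coverage began inside the gene, 4571 and 2469 bp from the start. The cKO H3K27ac regions over the start ended at 3366 and 3285 bp. H3K36me3 thus began beyond both of these ends in replicate 1 and before both in replicate 2.

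At Iigp1, H3K36me3 regions were listed in cKO replicate 2 alone, with 25.2% of the window covered by 2 regions of 643 and 4796 bp, and 0% in the other 3 libraries. The wider region covered all of the Iigp1 coding sequence. Without cKO replicate 2, Iigp1 had no H3K36me3 region in any library.

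The regulatory members were marked by H3K36me3 in every library. Coverage of the Irgm1 window was 34.2 and 32.8% in WT and 28.5 and 34.2% in cKO, and of the Igtp window 45.5 and 38.3% in WT and 38.9 and 42.5% in cKO. For Irgm2 it was 30.4 and 32.8% in WT and 26.7 and 42.7% in cKO, most of it in the Igtp region. With the RefSeq model of Irgm2, which leaves Igtp out, it was 17.3 and 30.3% in WT and 10.9 and 42.2% in cKO. The groups overlapped at all 3 genes. The edges of the regions were as follows. The Irgm1 region began 2033 and 2239 bp after the start in WT and 3352 and 2871 bp after it in cKO, and ended at 7064 and 7069 bp in WT and 7543 and 7909 bp in cKO. At Igtp the first H3K36me3 base lay 2102 and 2018 bp after the start in WT and 2966 and 2490 bp in cKO, and the last at 8435 and 8411 bp in WT and 9078 and 9098 bp in cKO. At Irgm1 and Igtp, both edges lay further along the gene in the 2 cKO libraries than in the 2 WT libraries, while over the part of Irgm2 beyond Igtp the first edges (58218658 and 58217462 in WT, 58218688 and 58216946 in cKO) and the last edges (58221575 and 58222006 in WT, 58220716 and 58222350 in cKO) overlapped between the groups. How many of all genes show such a shift was not computed. The Irgm1 and Igtp coding sequences stayed covered (100% in WT, 98.9 ± 1.56 and 96.9% in cKO).

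**Figure D5:**
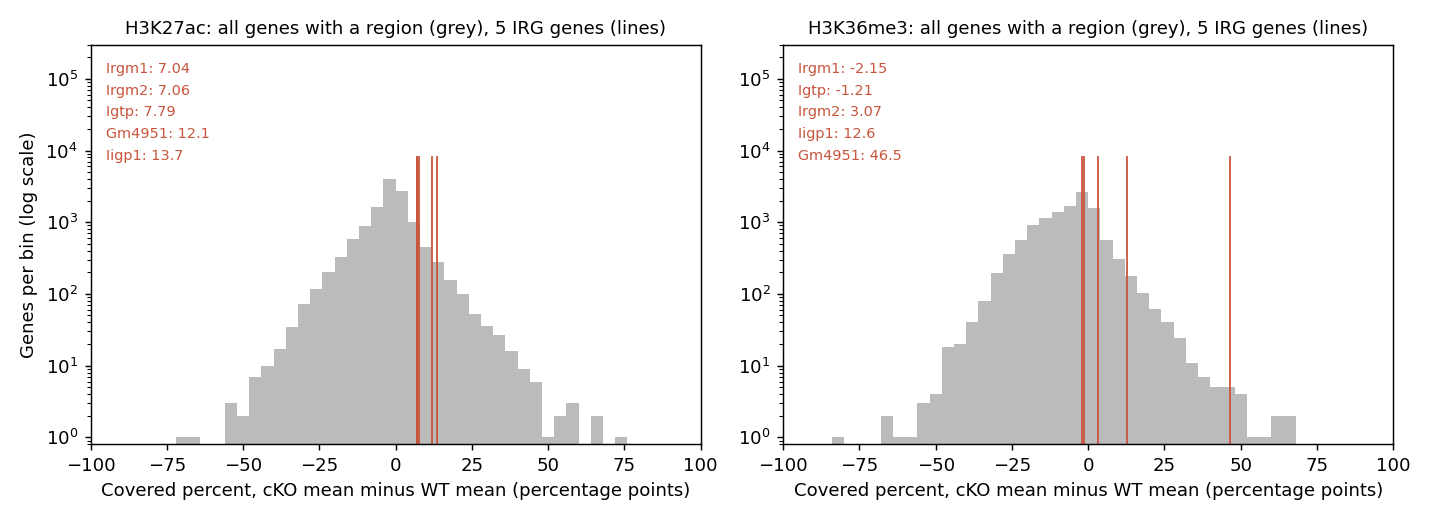
Number of genes (log scale) by difference in covered percent, cKO mean minus WT mean, for all genes with a region of the mark (grey bars), with the 5 IRG genes as lines and their differences printed. The 5 lines lie between 7.04 and 13.7 points for H3K27ac, and for H3K36me3 between -2.15 and 12.6 points apart from Gm4951 at 46.5.

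H3.3-HA, profiled in cells with intact H3.3, lay over Irgm1 and hardly over the others. A region in both replicates was found for 1 of the 5 genes, Irgm1, against 44.2% of all 21938 protein-coding genes. H3.3-HA covered 37.3 and 53.0% of the Irgm1 window. It covered 0 and 5.67% of Irgm2, 0 and 3.84% of Igtp, 1.23 and 0% of Gm4951 and 0 and 0% of Iigp1. Over Irgm1, 3 places were listed in both replicates, at the start, about 1615 to 3223 bp into the gene and about 6285 to 8295 bp into it (edges from replicate 1). The H3.3-HA replicate 1 region at the start lay wholly inside the H3K27ac region of each of the 4 WT and cKO libraries. The replicate 2 region there, of 3604 bp, shared 2606 and 2341 bp with H3K27ac in WT and 3464 and 3269 bp in cKO, and so lay wholly inside none. The HA libraries were the shallowest, at 6951296 and 5365319 tags, so a missing region at the other genes says only that none was called at this depth.

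Around the genes, the surrounding 100 kb on each side, with the windows left out, were read in the same way. At Gm4951, the flanks held no region of either mark in WT, no H3K27ac in cKO, and H3K36me3 over 2.37 and 16.4% in cKO. Those flanks include Gm4841 and F830016B08Rik, further IRG genes. At the Igtp and Irgm2 locus, H3K36me3 covered 29.2 and 29.3% of the flanks in WT and 8.57 and 25.2% in cKO, while H3K27ac covered 9.12 and 4.42% in WT and 5.99 and 7.58% in cKO. At Irgm1, H3K27ac covered 10.7 and 7.96% of the flanks in WT and 5.22 and 8.14% in cKO and the groups overlapped. At Iigp1, H3K27ac covered 2.19 and 1.55% of the flanks in WT and 0.389 and 0.763% in cKO, the opposite order to the gene itself, and H3K36me3 covered 6.40 and 6.37% in WT and 3.02 and 15.0% in cKO. Of 17 neighbouring protein-coding genes, H3K27ac was higher in cKO at 2 and lower at 2, and H3K36me3 was higher at 4 and lower at 3. Those higher were Gm12185 and Mrpl22 for H3K27ac, and Gm5431, Psme2b, 9930111J21Rik1 and F830016B08Rik for H3K36me3. Of these, Gm12185, Gm5431, 9930111J21Rik1 and F830016B08Rik are themselves on the list of other IRG genes below and are counted there again. None of the neighbours that were lower is on that list. For each mark 14 of the 17 had a region, and the shares over all genes with a region were 17.4% higher and 38.2% lower for H3K27ac and 7.85% and 37.7% for H3K36me3.

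The 13 other IRG genes of a list drawn up for the comparison had more H3K27ac coverage in both cKO than in both WT libraries at 7, and less at 0. A region was listed for 11 of the 13, and 17.4% of all genes with a region were higher and 38.2% lower. These shares are over protein-coding genes, whereas GENCODE M21 annotates 11 of the 13 list genes as protein coding, without Gm12250 and Gm12187. The 7 were Tgtp1, Tgtp2, Ifi47, Gm12250, Gm12185, Irgc1 and Irgq. The bodies of Gm12185 (chr11:48904656-48992226) and Tgtp1 (chr11:48985327-48994172) overlap, so the same regions can count for both. Words that occur once made up 24.7% of the Gm12185 window and 39.6% of the Tgtp1 window. Tgtp2, an effector GTPase, had 12.6 and 9.38% in WT and 40.8 and 44.6% in cKO, although words that occur once made up only 32.7% of its window. Ifi47 (also called Irgd) had 56.0 and 50.8% in WT and 64.3 and 69.5% in cKO. Gm12250, which lies next to Igtp and has the GENCODE M21 label of a processed pseudogene, had 45.3 and 21.7% in WT and 58.0 and 60.8% in cKO. That label is the annotation's, and whether the gene makes a protein was not examined here. Irgq, which is not known to be induced by interferon, had 0 and 0% in WT and 10.1 and 12.2% in cKO. For H3K36me3 the 13 genes were higher at 4, Gm5431, 9930111J21Rik1, Gm12250 and F830016B08Rik, and lower at 1, Irgq. A region was listed at 9 of the 13, and 7.85% of all genes with a region were higher and 37.7% lower. Words that occur once made up only 3.23% of the 9930111J21Rik1 window, so its regions can hardly be assigned to this gene. They made up 61.2% of Gm5431, 65.3% of F830016B08Rik and 94.7% of Gm12250. F830016B08Rik, the neighbour of both Gm4951 and Iigp1, had 0 and 0% in WT and 16.6 and 78.7% in cKO, with no H3K27ac region in any library. Gm4841, next to Gm4951, had 49.2% in cKO replicate 2 and 0% in the other 3 libraries.

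Genes that act upstream of the IRGs were compared next. Of 12 genes of interferon reception and signalling, all with a region, H3K27ac coverage was higher in cKO at 4 and lower at 4, beside 17.4% and 38.2% of all genes. Those higher included Ifnar1, a chain of the type I interferon receptor, Tyk2, its kinase, and the transcription factor Stat2. Stat2 had 0 and 1.84% in WT and 14.0 and 13.9% in cKO. The 4 lower were Ifngr1 and Ifngr2, the chains of the interferon gamma receptor, Jak1, the kinase common to both receptors, and Irf1. Ifngr1 had 60.7 and 46.0% in WT and 34.7 and 35.8% in cKO. Irf1 had 7.50 and 1.29% in WT and none in cKO. For H3K36me3, 2 of the 12 were higher (Irf8 and Ifngr2) and 4 lower (Irf1, Irf9, Ifnar1 and Jak2), beside 7.85% and 37.7% of all genes, so the lower counts of both marks were near the share over all genes.

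The autophagy conjugation genes, which place IRG proteins on vacuoles, were higher for H3K27ac at 3 of 10 (Map1lc3a, Gabarapl2 and Gabarap) and lower at 3 (Atg7, Gabarapl1 and Atg3), beside 17.4% and 38.2% of all genes. For H3K36me3 they were higher at 0 and lower at 5 of the 9 with a region (Atg7, Gabarapl1, Map1lc3b, Atg5 and Atg3), beside 7.85% and 37.7% of all genes. Their median H3K36me3 difference was -9.50 points, beside -4.99 points over all genes and 3.07 points over the 5 IRG genes.

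The 3 genes whose coverage over the 10 libraries was closest to that of each member, by mean absolute difference in covered percent, are given with that difference. For Iigp1 they were Gbp6, a guanylate-binding GTPase (1.63 points), Hsh2d (2.62 points) and Gm10330 (2.77 points). Gbp6 had no H3K27ac region in WT and 7.34 and 10.1% in cKO, with H3K36me3 at 0 and 0% in WT and 5.91 and 25.6% in cKO. Hsh2d had H3K27ac at 0 and 0% in WT and 13.8 and 12.2% in cKO, whereas Gm10330 had no H3K27ac region in any library. For Gm4951 they were Phf11a (4.59 points), Phf11b (4.92 points) and Hoxa11 (5.20 points), and Phf11a had H3K36me3 at 0 and 0% in WT and 37.2 and 65.7% in cKO. The likeness did not hold for H3K27ac at Phf11a, with 4.40 and 4.04% in WT and 5.69 and 3.04% in cKO, or at Hoxa11, with no region. Phf11b had H3K27ac at 4.71 and 5.21% in WT and 15.1 and 20.2% in cKO. For Irgm1 they were Ahnak, Dpep2 and Serinc4 (2.64 to 4.90 points), for Irgm2 Atg101, Maip1 and Cdk2 (1.96 to 3.24 points), and for Igtp Dbr1, Mndal and Khsrp (3.25 to 3.54 points).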

How the data were processed

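The deposited files list the start and end positions of enriched regions, 1 list per library, for 10 libraries. Per the methods of the study, paired reads of 25 bp were aligned to mm10 with Bowtie2, and HOMER called the regions. Per the file headers, the authors called each library by itself against an IgG control, with peaks of 500 bp kept at least 1000 bp apart, 4-fold over the control at a Poisson p-value of 0.0001, and stitched peaks into regions. The submitters' processing notes also name cutadapt and deepTools. Heights, fold values and replicate-pooled calls are not in the lists, so only positions were used, and the count-based test of the study could not be run.

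From these positions, the percent of each GENCODE M21 gene window (gene body plus 5 kb upstream) covered by regions was computed in Python 3.11.15 with pandas 2.3.3. A gene counted as higher where both libraries of a genotype exceeded both of the other, among protein-coding genes with a region in any of the 4 libraries. Counting was tested on simulated regions. The members and the gene lists were chosen with earlier results of these data known. Named genes were the 5 members, list genes that met a counting rule (at most 10 a list, with Gm4841 named in addition as a neighbour), neighbours within 100 kb, and the 3 genes most alike to each member. Words of 25 bases that occur once were counted on the supplied mm10 genome, promoters were aligned with Biopython 1.88, and figures were drawn with matplotlib 3.10.9. Alternatives were a least region width of 1 kb, lists of equal length, other windows, scaling by covered length, mappable bases, presence of at least 500 bp, leaving out each library, and RefSeq gene models (added after the data were seen). IgG samples were not analysed here. Some values of single list genes are not reported here.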

Additional observations from a re-analysis of the deposited data

How the results depend on the processing

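At H3K27ac, the number of genes with higher coverage in cKO was 5 under all alternatives tried except the gene body alone and 20 kb added on both sides, where it was 4 without Irgm1. All 55 alternative differences had the direction reported, 42 of them within 1 SD between replicates. Leaving out 1 library cannot undo such a call or turn its direction, because both cKO values already lie above both WT values. Nor can scaling by covered length, because each cKO H3K27ac list covers less than each WT list. The direction under these alternatives was thus fixed in advance. At H3K36me3, 45 of 55 alternative differences kept their direction. Of the 100 alternative counts, 90 were within 1.5 times the reported count. These 100 include the H3K27ac counts that were fixed in advance. The number of genes with higher H3K36me3 coverage in cKO, reported as 1, was 2 with 20 kb added on both sides (Irgm1 and Gm4951) and 3 after scaling by covered length (Irgm1, Irgm2 and Gm4951), and ranged from 1 to 4 when 1 library was left out, with 4 without cKO H3K36me3 replicate 1. The scaled Irgm1 values were 46.2 and 30.8% in cKO against 30.7 and 28.3% in WT, so the margin there was very small. The number lower, reported as 0, was 1 with RefSeq gene models (Irgm1) and ranged from 0 to 2 when 1 library was left out, with 2 without cKO H3K36me3 replicate 2. Without cKO H3K36me3 replicate 1 the number with regions only in cKO was 2 (range 1 to 2). For H3.3-HA, the count of 1 became 3 or 2 when 1 replicate was left out, since a region in the remaining library then sufficed. The cause of the other changes was not tested. After scaling by covered length, the Irgm1 and Igtp H3K36me3 differences of -2.15 and -1.21 points became 8.97 and 13.7 points. No paired analysis was possible because the comparisons rest on no test and replicate numbers are labels only. With 2 libraries a group and no heights, changes in strength within a region cannot be seen.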
